A study of Mus musculus with 4 samples.

Results

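The comparison described here is that of spleen regulatory T cells (Tregs) from Csnk2b-deficient mice with those from wild-type (WT) mice, with 1 RNA-seq library per genotype, so 2 of the 4 libraries of the study. The study measured messenger RNA of CD4+Foxp3+ Tregs, sorted by flow cytometry, in the spleen and in the tracheal lymph nodes of both genotypes. The mice were 8 weeks old and on the C57BL/6 strain, and the deficient mice are labelled Csnk2b-/- without a statement of the allele, of the promoter that drives the deletion or of how many animals went into a library. The series calls its design duplicate, but the members of each duplicate come from different tissues. Features were kept where the deposited tables gave them an exon length and where they had at least 20 exon reads summed over both spleen libraries, which left 11181 of 28032 features. These held 99.8% of the exon reads of each library.

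Csnk2b encodes the beta subunit, the regulatory one, of protein kinase CK2, a constitutively active serine/threonine kinase whose catalytic subunits are the products of Csnk2a1 and Csnk2a2. A pair of beta subunits holds the catalytic subunits together in the holoenzyme and shapes which substrates it phosphorylates, among them components of the AKT, NF-kappaB and Wnt pathways. Tregs are CD4 T cells that depend on the transcription factor FOXP3 and restrain other immune cells. In lymphoid organs they range from naive-like cells that recirculate through lymph nodes to effector cells that carry receptors for tissue homing and for interleukin-33 (IL-33) and interleukin-18 (IL-18).

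The WT spleen library held 6750695 exon reads and the Csnk2b-deficient one 4877882, of which 85.7% and 86.2% were uniquely placed. Both libraries carried reads of the Y-linked genes Kdm5d (721 and 539 reads) and Ddx3y (1641 and 1383), and Xist had 0 and 1 reads. The CD4 T cell identity of the sort was present in both: the 10 markers of T cells and CD4 summed to 4938 CPM (exon read counts scaled to a common library size) in WT and 4773 in Csnk2b-deficient cells, and each lay within 1.5-fold. B cell markers were few but alike (35.6 and 41.4 CPM in all), and the neutrophil, red cell and platelet lists summed to at most 9.08 CPM. Since a library is bulk RNA, fewer cells of a type and less RNA per cell cannot be told apart. There is no replicate of either genotype in the spleen, so every interval below is the 95% exact (Clopper-Pearson) interval for counting error alone, no p-value is given, and differences between the animals or preparations are not measured.

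The targeted gene was lower in the library labelled Csnk2b-deficient and the catalytic subunits were not. Csnk2b had 649 reads in WT and 148 in Csnk2b-deficient Tregs, which is 96.6 and 30.2 CPM and a log2 ratio of -1.68 (interval -1.94 to -1.42). In linear terms the ratio was 0.313 (interval 0.260 to 0.374), so reads of the gene were reduced but present. The reads that cross an exon junction of Csnk2b numbered 225 and 56, and the uniquely placed intron reads 68 and 11. Csnk2a1 had 1573 and 1159 reads (log2 ratio 0.01, interval -0.10 to 0.13) and Csnk2a2 had 263 and 197 (0.04, interval -0.24 to 0.31). The levels per length were 44.6 RPKM (CPM divided by the exon length in kilobases) for Csnk2b in WT, 33.0 for Csnk2a1 and 10.4 for Csnk2a2, so the beta subunit was the most abundant of the 3 in WT and, at 14.0, lay below Csnk2a1 in the deficient library.

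Csnk2b lies in the class III region of the major histocompatibility complex at chr17:35253141-35258998 (mm9), and 599 bases at its higher-coordinate end overlap Gpank1 (chr17:35258400-35261759). Gpank1, which encodes an ankyrin repeat protein, had 175 and 17 reads (log2 ratio -2.91), but only 15.1% of these were uniquely placed, and on the 25 and 4 uniquely placed reads its log2 ratio was -2.19. No source used here gives the strand of the reads, so reads of the overlap cannot be assigned to either gene. Of the 87 other measured features that start within 1 Mb of Csnk2b, 7 were at least 2-fold higher and 2 at least 2-fold lower, with a median log2 ratio of 0.02. The 7 were the class II genes H2-Ab1, H2-Eb1, H2-Aa and H2-DMb2 and the genes Btnl7, Fkbpl and C4a. All 7 had at most 61 reads in a library. The 2 were Gpank1 and C2, so the other neighbours of the deleted gene lay within 2-fold.

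Across the measured transcriptome both libraries were close. The median log2 ratio of Csnk2b-deficient over WT was -0.01, its quartiles were -0.19 and 0.16, and the correlation of log2 CPM (with 1 added) across features was 0.979, where features are not independent replicates. In all, 336 features (3.01% of those measured) were at least 2-fold higher in Csnk2b-deficient Tregs and 265 (2.37%) at least 2-fold lower. Most of these had few reads: 242 of the 336 and 199 of the 265 had under 100 reads in both libraries together, a class of 2144 features, while of the 3006 features with 1000 reads or more 17 were higher and 6 lower. The whole counting interval lay past 2-fold for 92 features (0.823%) higher and 40 (0.358%) lower. The 17 deeply read features were Nav2, Dst, Emb, Ptpn13, Prrt2, Naip5, Tnfsf8, Cd74, Cldn25, Penk, Il1rl1, Casp1, Il18r1, Itgae, Ttn, Bzrap1 and Lilrb4, and the 6 lower ones included Sesn1, Nsg2, Foxp3, Il6ra and Gpr83. Of these 23, Prrt2 and Foxp3 had fewer than 50% of their reads placed uniquely (15.7% and 28.1%).

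**Figure D1:**
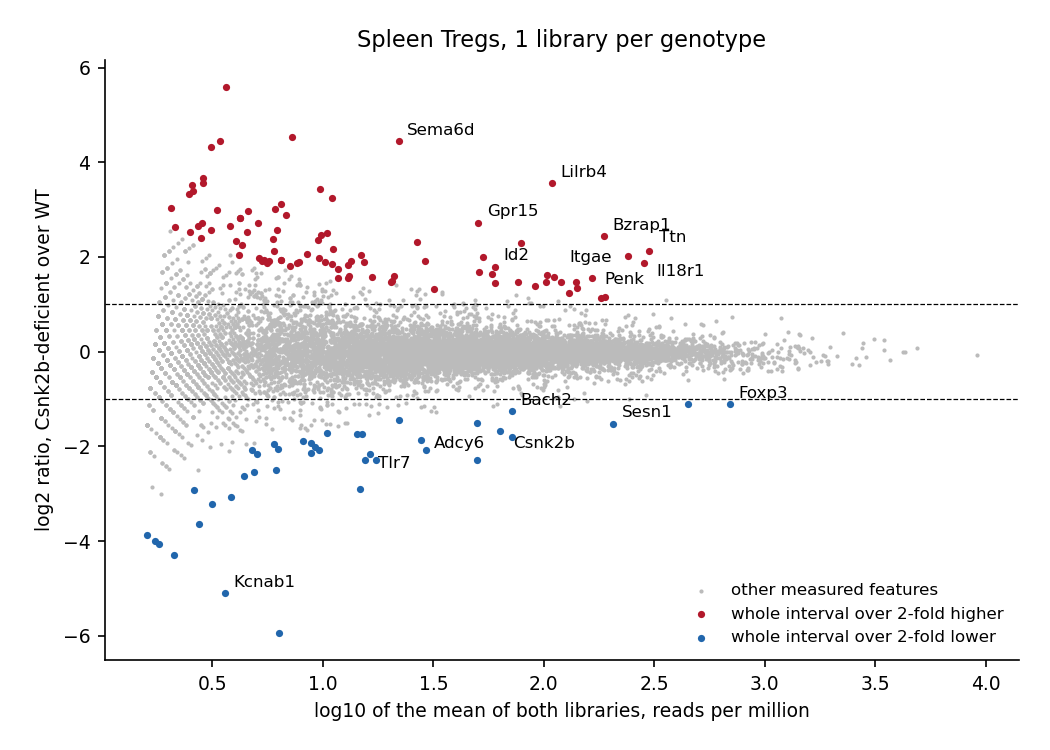
The log2 ratio of Csnk2b-deficient over WT spleen Tregs (vertical axis) is plotted against the log10 of the mean CPM of both libraries for the 11181 measured features, with dashed lines at 2-fold. Red and blue points are the 92 higher and 40 lower features whose whole counting interval lies past 2-fold, and the grey cloud widens to the left, where 2144 features have 20 to 99 reads.

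The features that were farthest higher by the near end of their interval ranged from genes read well in both libraries to genes all but unread in WT, and Sema6d, Kynu and Lilrb4 came first. Sema6d, a transmembrane semaphorin, had 13 reads in WT and 206 in Csnk2b-deficient Tregs, 1.93 and 42.0 CPM (21.7-fold, interval 12.4 to 41.5). Lilrb4, an inhibitory receptor of the immunoglobulin family, had 114 and 983 reads (11.8-fold, interval 9.73 to 14.5), and Gp49a, its neighbour without the inhibitory motifs, 4 and 68. The genes of this pair overlap on chromosome 10 (Lilrb4 at chr10:51200446-51216419 in mm9), are close copies of each other, and had 65.6% and 73.6% of their reads placed uniquely, so the division of reads between them is uncertain. On uniquely placed reads alone Lilrb4 had a log2 ratio of 3.42, beside 3.56 on all reads.

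Gpr15, a G protein-coupled receptor that guides T cells to the large intestine, had 89 and 430 reads (13.2 and 87.7 CPM, 6.62-fold, interval 5.26 to 8.42). Its neighbour Cldn25 had 424 and 862 reads, a log2 ratio of 1.48. Bzrap1, which encodes a binding protein of the mitochondrial benzodiazepine receptor, had 390 and 1547 reads (5.44-fold, interval 4.86 to 6.09), the most reads of these features after Ttn. Ttn, which encodes the giant muscle protein titin, had 742 and 2379 reads, but with an exon length of 116828 bases these made only 0.945 and 4.16 RPKM. On the 58.3% of its reads that were uniquely placed Ttn had a log2 ratio of 1.92, beside 2.14 on all of them. These 4 genes were thus read well in both libraries, in contrast to those that follow.

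Others among the 15 were at or near the limit of detection in WT. Kynu, an enzyme of tryptophan breakdown, had 0 reads in WT and 28 in Csnk2b-deficient Tregs, which is at least 9.74-fold higher by the lower end of its interval (12.8-fold against a floor of 3 reads). Bace2, an aspartyl protease, had 0 and 25, at least 8.62-fold higher by the lower end (11.4-fold against the floor). Plscr4, a phospholipid scramblase, had 1 and 35 reads, a ratio of 48.0 with an interval of 8.07 to 1950. Epas1, the hypoxia-inducible factor HIF-2alpha, had 11 and 87 reads (10.8-fold, interval 5.77 to 22.5). The actin nucleator Cobl had 2 and 32 reads, the actin-severing Scin 9 and 57, the copine Cpne7 14 and 97, and the secreted kinase Pkdcc 9 and 53. Il18rap completed the 15 and is described with its family. Just beyond them stood Ecel1, with 11 and 59 reads, and Lama5, with 60 and 218.

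Among the 15 that were farthest lower, transporters, a nucleic acid sensor and a stress-response gene stood beside Csnk2b. Sesn1, a sestrin that restrains mTORC1 under stress and is a known FOXO target, was the most deeply read, with 2058 reads in WT and 523 in Csnk2b-deficient Tregs (306 and 107 CPM). Its log2 ratio was -1.52, and the interval in lower-fold terms ran from 2.61 to 3.17. Atp1b1, a subunit of the sodium pump, had 193 and 29 reads (log2 ratio -2.28), and Tlr7, the endosomal sensor of single-stranded RNA, had 173 and 26 (-2.28). Adcy6, an adenylyl cyclase, had 293 and 59 reads (-1.86), and the sortilin-family receptor gene Sorcs2 had 179 and 29 (-2.17). The predicted gene Gm14085 had 753 and 157 reads (-1.81), with 62.5% of them uniquely placed.

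The remaining lower features had few reads even in WT. Kcnab1, a potassium channel subunit, had 47 reads in WT and 1 in Csnk2b-deficient Tregs, a log2 ratio of -5.10 with an interval of -10.43 to -2.55. Faim3, the receptor for the Fc part of immunoglobulin M, had 38 and 3 reads, the coagulation factor gene F13a1 46 and 4, the calcium release channel gene Ryr2 70 and 9, and the Src-family kinase gene Fgr 51 and 6. Syde1 had 56 and 7 reads, the tubulin gene Tubb2b 34 and 2, and the predicted gene Gm16120 23 and 1. No measured feature had 0 reads in the Csnk2b-deficient library. Just beyond the 15 stood Gng12, with 97 and 16 reads, and 1700025G04Rik, with 104 and 18.

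**Figure D2:**
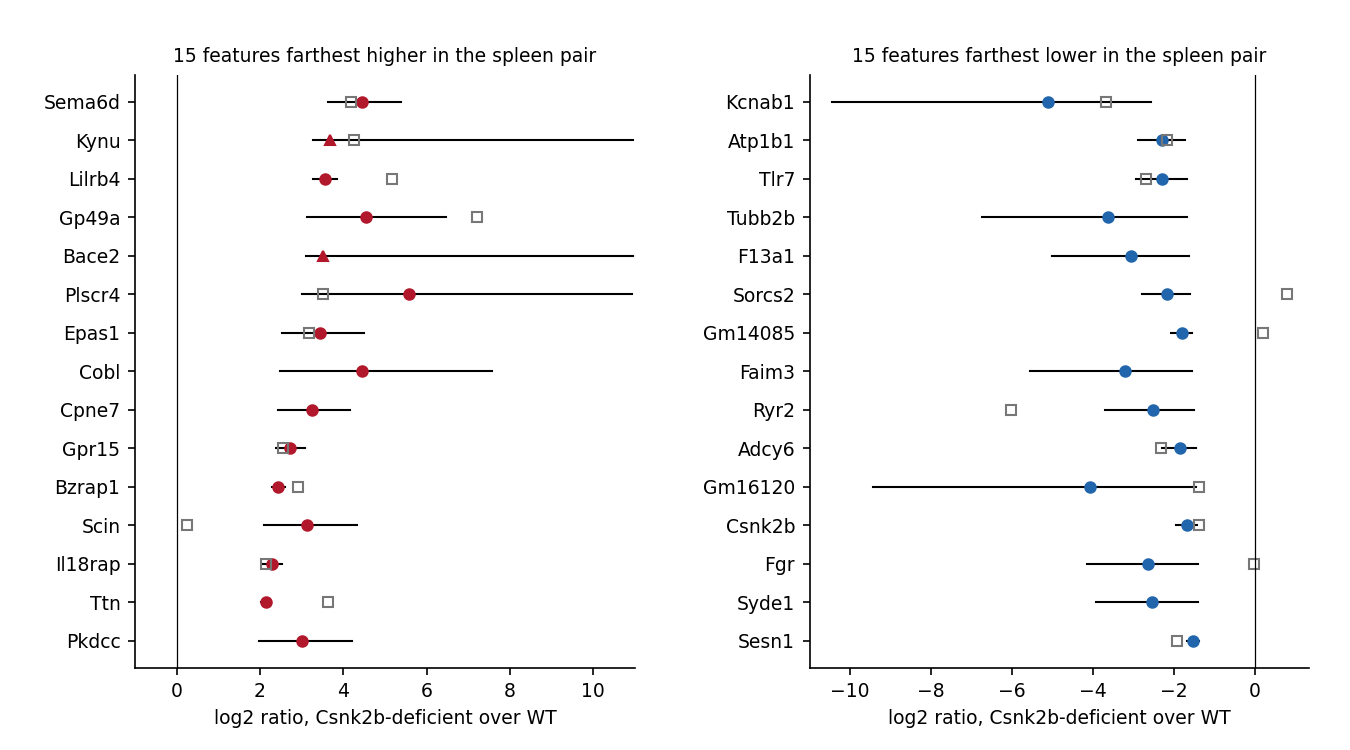
Circles give the spleen log2 ratio of Csnk2b-deficient over WT and lines its 95% counting interval for the 15 features farthest higher (left) and farthest lower (right); triangles mark Kynu and Bace2, whose WT count of 0 was set to 3 reads, and lines that reach the right edge go beyond the axis. Open squares give the tracheal lymph node pair where it had at least 20 reads, and stand on the opposite side of 0 from the spleen only for Sorcs2 and Gm14085.

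Genes of the interleukin-1 and IL-18 receptor family formed a group of adjacent genes with higher reads. The family includes receptors that signal through MYD88 and IRAK kinases, among them ST2, the IL-33 receptor encoded by Il1rl1, and decoys that bind a ligand without signalling. Of the 13 measured members of a list of 20, 4 were at least 2-fold higher and 1 at least 2-fold lower, and the median log2 ratio was 0.10, beside -0.01 over all features. The 4 lie in 1 cluster on chromosome 1 (mm9), from Il1r2 at chr1:40141613-40182064 through Il1rl1 at chr1:40486415-40522260 and Il18r1 at chr1:40522397-40557699 to Il18rap at chr1:40572207-40608550. Their promoters are shown because these neighbours were higher together. Each line gives 250 bases before to 50 bases after a gene's start, on the plus strand of GRCm38.p6, as RefSeq lists it (chr1:40085843-40086142 for Il1r2, chr1:40429320-40429619 for Il1rl1, chr1:40465302-40465601 for Il18r1 and chr1:40515112-40515411 for Il18rap). Il1rl1 has 2 and Il18r1 3 starts in the RefSeq table, of which the first listed is printed. Capitals mark matches to 4 motifs searched on both strands. The letters searched for AP-1 factors were TGANTCA. Those for FOXO factors were TGTTTAC. The E-box, bound by E proteins, was searched only in the form CAGNTG, and the motif of the GATA family as AGATAA. Other forms of the E-box were not searched. In these windows no match overlapped another.
Il1r2: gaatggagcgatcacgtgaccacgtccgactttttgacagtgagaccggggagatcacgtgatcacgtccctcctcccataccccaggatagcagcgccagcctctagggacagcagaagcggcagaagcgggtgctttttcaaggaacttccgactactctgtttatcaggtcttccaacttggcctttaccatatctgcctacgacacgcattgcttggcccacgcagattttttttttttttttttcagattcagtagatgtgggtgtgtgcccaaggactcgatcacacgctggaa
Il1rl1: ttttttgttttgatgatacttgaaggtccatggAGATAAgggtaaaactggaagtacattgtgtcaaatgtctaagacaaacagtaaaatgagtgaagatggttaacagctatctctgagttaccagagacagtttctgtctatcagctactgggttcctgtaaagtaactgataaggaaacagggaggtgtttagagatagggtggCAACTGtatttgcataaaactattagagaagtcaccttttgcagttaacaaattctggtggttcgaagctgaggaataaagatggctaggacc
Il18r1: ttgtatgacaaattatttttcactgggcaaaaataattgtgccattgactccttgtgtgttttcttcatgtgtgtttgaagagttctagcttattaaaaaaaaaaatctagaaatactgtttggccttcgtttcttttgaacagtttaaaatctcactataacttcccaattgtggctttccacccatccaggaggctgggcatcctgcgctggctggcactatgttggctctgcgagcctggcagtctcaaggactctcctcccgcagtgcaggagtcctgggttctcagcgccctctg
Il18rap: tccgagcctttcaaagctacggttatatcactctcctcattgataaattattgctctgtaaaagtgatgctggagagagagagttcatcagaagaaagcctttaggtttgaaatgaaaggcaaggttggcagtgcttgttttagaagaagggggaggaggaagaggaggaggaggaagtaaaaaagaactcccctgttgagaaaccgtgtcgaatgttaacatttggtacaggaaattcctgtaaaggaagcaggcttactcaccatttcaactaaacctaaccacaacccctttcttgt

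Only the Il1rl1 window held a match, 1 to the GATA motif and 1 to this form of the E-box. The other 3 windows held no match to the letters searched. Of the 11181 measured features 7789 matched a promoter in the RefSeq table by symbol, and of those windows 4.60% held the AP-1 motif, 2.43% the FOXO motif, 42.4% the E-box and 6.27% the GATA motif. Among the 211 windows of features at least 2-fold higher the shares were 7.11%, 2.37%, 60.2% and 8.06%, and among the 164 of features at least 2-fold lower 7.32%, 4.88%, 53.0% and 6.71%. Over all 27025 genes of the table they were 7.93%, 3.55%, 51.1% and 11.4%. These shares describe letters in a short window and not bound sites.

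The IL-18 receptor was higher in both of its chains. Il18r1, the ligand-binding chain, had 822 reads in WT and 2181 in Csnk2b-deficient Tregs (122 and 445 CPM, 3.64-fold, interval 3.36 to 3.95). Il18rap, the accessory chain, had 180 and 641 reads (4.88-fold, interval 4.13 to 5.79). Il1rl1 had 375 and 821 reads (3.00-fold, interval 2.65 to 3.40), and the decoy receptor gene Il1r2 143 and 418 (4.01-fold, interval 3.31 to 4.88). Per length, Il18r1 went from 25.6 to 93.1 RPKM and Il1r2 from 15.9 to 63.8, while Il18rap stood at 3.97 and 19.4. The intron reads of Il18r1 numbered 490 and 1297 and those of Il18rap 134 and 418, so both kinds of read were higher for these 2 genes. The other genes inside the cluster were barely read, Il1r1 with 5 reads in each library and Il1rl2 with 12 and 7.

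The shared signalling parts of the family were not at 1.5-fold. Il1rap, the co-receptor of IL-1 and IL-33, had a log2 ratio of -0.10, the adaptor Myd88 0.14, the kinases Irak1 0.10 and Irak4 0.01, and the negative regulator Sigirr 0.15. Il1rn, the secreted antagonist of the IL-1 receptor, was the 1 member at least 2-fold lower, with 19 and 5 reads (log2 ratio -1.47), and its interval reached 0.00.

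Genes listed for effector Tregs were mostly higher. Like the other lists, this one was chosen with earlier results of these data known. At a looser bound of 1.5-fold, which 762 features (6.82%) passed higher and 691 (6.18%) lower, 16 of the 35 measured effector Treg genes were higher and 0 lower, with a median log2 ratio of 0.52 against -0.01 over all features. Of these, 9 were at least 2-fold higher: Areg, Itgae, Id2, Ahr, Fgl2, Il1rl1, Lgals3, Gzmb and Ebi3. Itgae, which encodes the alpha chain of CD103 that binds E-cadherin on epithelium, had 635 reads in WT and 1889 in Csnk2b-deficient Tregs (94.5 and 385 CPM, 4.08-fold, interval 3.73 to 4.47). Id2, an inhibitor of E proteins, had 180 and 456 reads (3.47-fold, interval 2.92 to 4.15). Ahr, the aryl hydrocarbon receptor, had 190 and 431 (3.11-fold, interval 2.62 to 3.71), and the cytotoxic protease gene Gzmb 104 and 190 (2.50-fold). Areg, the tissue repair factor amphiregulin, had only 13 and 49 reads, and its interval was correspondingly wide (5.17-fold, 2.76 to 10.4). The anti-inflammatory cytokine gene Il10 had 62 and 65 reads and a log2 ratio of 0.52, with an interval from -0.00 to 1.05, and did not reach 1.5-fold.

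The naive and central T cell genes lay in the opposite direction. Of 18 measured members 8 were at least 1.5-fold lower and 1 higher, and the median log2 ratio was -0.43. Bach2, a transcriptional repressor that limits effector differentiation, had 682 reads in WT and 209 in Csnk2b-deficient Tregs (log2 ratio -1.25, interval -1.48 to -1.03). Ly6c1 had 293 and 90 reads (-1.25) with 66.1% of them uniquely placed and a log2 ratio of -0.99 on those. Its junction reads, 74 and 51, had a log2 ratio of only -0.08 (interval in linear terms 0.65 to 1.37). The interleukin-6 receptor chains Il6ra (1420 and 504 reads, -1.04) and Il6st (2181 and 800 reads, -0.99) were also lower. Ccr7, a lymph node homing receptor, had a log2 ratio of -0.35 and was within 1.5-fold. The single member past 1.5-fold higher was Il7r, the interleukin-7 receptor, with 1913 and 2287 reads (log2 ratio 0.71).

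**Figure D3:**
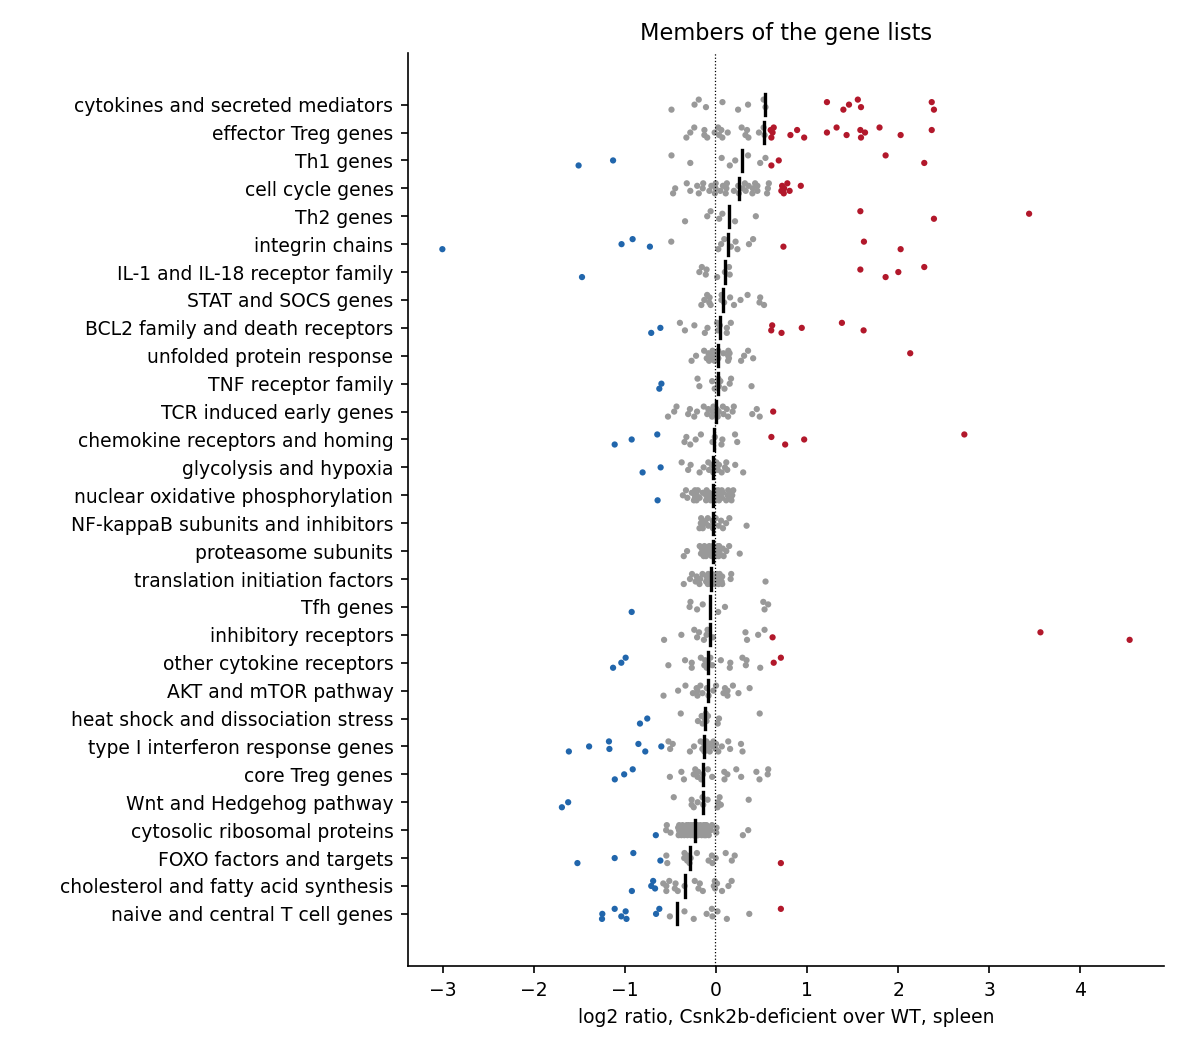
Each point is a measured member of a gene list with at least 10 such members, placed by its spleen log2 ratio of Csnk2b-deficient over WT (horizontal axis); red and blue points are at least 1.5-fold higher or lower, black bars are list medians and the dotted line is the median of all features, -0.01. The effector Treg genes and the secreted mediators have medians of 0.52 and 0.53 at the top, and the naive and central T cell genes have the lowest median, -0.43.

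The FOXO factors and their targets overlapped that list and also lay low. Of 21 measured members 4 were at least 1.5-fold lower and 1 higher, with a median log2 ratio of -0.29 and 17 of the 21 below 0. Besides Sesn1, Foxo1 itself, a transcription factor that keeps T cells quiescent, had 2543 and 989 reads (378 and 202 CPM, log2 ratio -0.91, interval in lower-fold terms 1.74 to 2.02). Bcl2l11, the pro-apoptotic BIM, had 496 and 237 reads (-0.61). The targets Klf2 and S1pr1, which direct lymphocyte egress, had log2 ratios of -0.04 each, and Pik3ip1, an inhibitor of PI3 kinase, -0.53. Of the 20 measured AKT and mTOR pathway genes 0 passed 1.5-fold in either direction. The same held for the 19 NF-kappaB genes (median -0.04), and of the 15 Wnt and Hedgehog genes 2 were at least 2-fold lower, Lrp5 with 31 and 7 reads and Fzd6 with 38 and 9.

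Of the core Treg genes, Foxp3 had the lowest ratio when all reads were counted. It had 6395 reads in WT and 2160 in Csnk2b-deficient Tregs, 952 and 441 CPM and a log2 ratio of -1.11, but only 28.1% of these reads were uniquely placed. On the 1633 and 773 uniquely placed reads its log2 ratio was -0.62, and on the 1713 and 809 junction reads -0.63. Foxp3 (chrX:7156802-7172369, mm9) lies inside the span of Ppp1r3f (chrX:7134422-7182507), a phosphatase subunit gene that had 1292 and 708 reads (-0.41 on all reads and -0.11 on uniquely placed ones). The value of the ratio therefore depends on how the shared reads are treated, and its direction did not. Of the 23 core genes measured 3 were at least 1.5-fold lower, which were Foxp3, the G protein-coupled receptor gene Gpr83 (1224 and 444 reads, -1.01) and the transcription factor gene Gata1 (155 and 60 reads, -0.91). By this scaling 0 were 1.5-fold higher, though Nrp1, a co-receptor for semaphorins, lay just inside at 0.57 and passed when scaled to total exon reads, and the list's median was -0.14. The interleukin-2 receptor chain Il2ra had 4725 and 2944 reads (-0.23), the checkpoint receptor Ctla4 3992 and 2238 (-0.38) and the Ikaros-family factor Ikzf2 8766 and 6976 (0.13), all within 1.5-fold.

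Secreted mediators were mostly higher. Of 16 measured, 7 were at least 2-fold higher and 0 lower, with a median log2 ratio of 0.53. Areg, Ebi3 and Fgl2 are counted both here and among the effector Treg genes. Penk, the precursor of enkephalin peptides, had 563 and 1209 reads (2.94-fold, interval 2.66 to 3.26), and Tnfsf8, the ligand of CD30, 502 and 1008 (2.75-fold, interval 2.47 to 3.07). Tnfsf14, the ligand LIGHT, had 79 and 152 reads, and Ebi3, a subunit of interleukin-35 and interleukin-27, had 139 and 236 (log2 ratio 1.22) with 54.1% of its reads uniquely placed. The prothrombinase gene Fgl2 had 70 and 154 reads, of which 7.59% were uniquely placed. Il4, the cytokine of Th2 cells, had 6 reads in WT and 23 in Csnk2b-deficient Tregs, a ratio of 5.26 with an interval of 2.08 to 15.8. The interferon-gamma gene Ifng had 25 and 13 reads and a log2 ratio of -0.49.

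Of the helper T cell lineage lists, those of Th1, Th2 and Th17 cells leaned higher and that of follicular helper cells did not. Their median log2 ratios were 0.28, 0.14, 0.24 and -0.06, beside -0.01 over all features. Of 10 measured Th2 genes 3 were at least 1.5-fold higher, Il4, Il1rl1 and Epas1, while Gata3, the master factor of Th2 cells, had 920 and 909 reads (log2 ratio 0.44). Of 14 Th1 genes 4 were at least 1.5-fold higher and 2 lower. The higher ones were Il18r1, Il18rap, Cxcr3 and Nkg7, and the lower ones Eomes (39 and 10 reads) and Il12rb2 (18 and 6). Tbx21, the master factor of Th1 cells, had 79 and 84 reads (0.54). Of 6 measured Th17 genes 2 were at least 1.5-fold higher, Ahr and Rora. Of 10 follicular helper genes 1 was at least 1.5-fold lower, the follicle homing receptor Cxcr5, with 703 and 270 reads (-0.93), and Tox2 (258 and 280 reads, 0.57) passed 1.5-fold higher only when scaled to total exon reads.

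Adhesion and homing receptors moved in both directions. Of 18 chemokine and homing receptors 4 were at least 1.5-fold higher and 3 lower. The higher ones were Gpr15, Ccr2 (435 and 621 reads, 0.97), Cxcr3 (766 and 852 reads, 0.61) and Gpr183 (17 and 21 reads, 0.76), of which the last has an interval that includes 0. The lower ones included Cxcr5 and Ccr9, the last with 15 and 7 reads of which 18.2% were uniquely placed. Of 16 integrin chains 3 were at least 1.5-fold higher, Itgae, Itgb1 (3588 and 4374 reads, 0.74) and Itgb5 (12 and 27 reads), and 4 lower, Itga9, Itgam, Itga5 and Itga2b, each with at most 106 reads in WT. Of 16 inhibitory receptors 3 were at least 1.5-fold higher, Lilrb4, Gp49a and Klrg1 (482 and 541 reads, 0.62), while Pdcd1, which encodes PD-1, had a log2 ratio of 0.53, Tigit 0.34 and Lag3 -0.24.

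Type I interferon response genes were lower in part. Of 31 measured, 7 were at least 1.5-fold lower and 0 higher, with a median log2 ratio of -0.13. The antiviral synthetase gene Oas2 had 84 and 20 reads (-1.62), Oasl1 36 and 10 (-1.39), the ubiquitin-like protease gene Usp18 260 and 84 (-1.17) and Ifit3 182 and 59 (-1.17, with 45.2% of its reads uniquely placed and -0.81 on those). The regulator Irf7 had 529 and 368 reads (-0.07) and was within 1.5-fold. The inflammatory caspases were higher: Casp1, which cleaves the precursors of interleukin-1beta and IL-18, had 340 and 763 reads (3.08-fold, interval 2.70 to 3.51), and its neighbour Casp4 had 339 and 645 (2.61-fold, interval 2.28 to 2.98). Among the 19 BCL2 family and death receptor genes that include this pair, 6 were at least 1.5-fold higher and 2 lower, while Bcl2 had a log2 ratio of 0.12 and Mcl1 of -0.24.

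Cell cycle genes leaned higher and ribosomal protein genes lower by a like amount, while few genes of translation initiation, the proteasome or respiration passed 1.5-fold. Of 40 cell cycle genes 7 were at least 1.5-fold higher and 0 lower, 0 were 2-fold higher, and the median log2 ratio was 0.25. Mki67, the proliferation marker Ki-67, had 772 and 722 reads (115 and 147 CPM, 0.36, interval 0.21 to 0.51), and Top2a 409 and 443 (0.57). The 7 past 1.5-fold had at most 77 reads in a library. Of 34 translation initiation factors and 34 proteasome subunits 0 passed 1.5-fold, and of 43 nuclear oxidative phosphorylation genes 1 did, Ndufa5 (171 and 80 reads, -0.64). Of 77 cytosolic ribosomal protein genes 73 had a ratio below 1, with a median log2 ratio of -0.23 (-0.21 on uniquely placed reads), and together they summed to 60989 CPM in WT and 52579 in Csnk2b-deficient cells. The counting interval lay wholly below no change for 71 of the 77 and above it for 2, beside 15.2% and 13.9% of all measured features, and for the cell cycle genes it lay above for 9 of 40 and below for 1. These are mostly deeply read genes with narrow intervals, a median of 16.5% of their reads was uniquely placed, and 1 was 1.5-fold lower, Rpl13 with 65 and 30 reads.

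Of 23 cholesterol and fatty acid synthesis genes 4 were at least 1.5-fold lower and 0 higher. Among these were Mvd, Lss and Sqle, enzymes of sterol synthesis. Mvd had 39 and 15 reads (-0.92), Sqle had 157 and 71 reads (-0.69), and Lss, at -0.71 on all reads, had 35.4% of them uniquely placed and -0.20 on those. The list's median was -0.34 on all reads and -0.20 on uniquely placed ones. Srebf2, the transcription factor of that pathway, had 1728 and 844 reads (-0.58) and just missed 1.5-fold. Of 27 genes that T cell receptor stimulation induces early 1 was 1.5-fold higher, Fosl2, and the median log2 ratio was 0.00. Among them Nr4a1 had 1118 and 660 reads (-0.31) and Myc 713 and 361 (-0.53).

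The remaining receptor, signalling and stress lists had from 0 to 3 members past 1.5-fold in either direction. Of 23 other cytokine receptors 2 were higher, Il7r and the interferon-gamma receptor chain Ifngr1 (1332 and 1508 reads, 0.63), and 3 lower, Il12rb2, Il6ra and Il6st. Of 14 TNF receptor family genes 0 were higher and 2 lower, the costimulatory receptor Cd27 (2268 and 1075 reads, -0.62, with 20.8% of the reads uniquely placed) and Tnfrsf1a (245 and 118 reads, -0.60). Of 16 STAT and SOCS genes 0 passed in either direction, with a median of 0.08. Of 25 unfolded protein response genes 1 was higher, the asparagine synthetase gene Asns with 5 and 16 reads, and of 13 heat shock and dissociation stress genes 2 were lower, Hmox1 (44 and 18 reads) and Hspa1b (37 and 16). Of 21 glycolysis and hypoxia genes 2 were lower, Pdk1, a kinase that limits pyruvate entry into mitochondria (992 and 414 reads, -0.81), and the lactate exporter Slc16a3 (94 and 45 reads, -0.61).

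Several class II antigen presentation genes, which mark B cells and dendritic cells, had more reads in the Csnk2b-deficient library, most of them from 7 or fewer reads in WT. Cd74, the invariant chain, had 365 and 738 reads (54.3 and 151 CPM, log2 ratio 1.47), H2-Eb1 7 and 40, H2-Ab1 3 and 26 and H2-Aa 7 and 14. H2-DMb2 had 6 and 19 reads, of which 68% were uniquely placed. H2-Ob, a chain of the modulator of peptide loading and the best read of the class II genes besides Cd74 that were looked at, lay the other way with 660 and 277 reads (-0.80, interval in lower-fold terms 1.51 to 2.01), and H2-DMa had 178 and 192 (0.56). The list of 13 dendritic cell markers holds Cd74, H2-Eb1, H2-Ab1 and H2-Aa but not H2-DMb2, H2-Ob or H2-DMa. It summed to 102 CPM in WT and 213 in Csnk2b-deficient cells. Of its 6 measured members 5 were at least 2-fold higher, and the other had a log2 ratio of -0.13. Among its members outside class II, Itgax had 1 and 0 reads, Flt3 0 and 1, Siglech 2 and 0 and Xcr1 1 and 6. Zbtb46 had 21 and 36 reads (log2 ratio 1.23, interval 0.42 to 2.08). The myeloid list summed to 239 and 262 CPM, of which Ctss made up most (1436 and 1207 reads), Lyz2 had 20 and 19 reads, and C1qa 5 and 0. Of its 5 measured members 2 were at least 1.5-fold lower, 1 of these at least 2-fold, and 0 were 1.5-fold higher. The part of other cell types in the class II values was not tested. NK cell markers summed to 15.3 and 8.98 CPM, with Klrb1c at 38 and 16 reads. Of the CD8 T cell markers, Cd8b1 had 113 and 53 reads (-0.64) and Cd8a 16 and 19 (0.70, interval -0.33 to 1.76). The plasma cell list summed to 1122 and 1032 CPM, nearly all of it Ighm (7522 and 5048 reads), the gamma delta and NKT cell list to 78.6 and 84.7, and the stroma and endothelium list to 176 and 123, mostly Pecam1 (1154 and 582 reads), which T cells also express.

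Intron reads, which come in part from unspliced RNA and were not used to choose the features, gave a second readout of the same libraries. Of 8783 features with at least 20 uniquely placed intron reads 233 (2.65%) were at least 2-fold higher and 123 (1.4%) at least 2-fold lower. An intron ratio above 1 was found for 5169 of the 8783. The median log2 ratio over all features with enough intron reads was 0.07 in introns beside -0.01 in exons. Of the 336 features at least 2-fold higher in exon reads 145 had enough intron reads, of which 135 were higher in introns and 95 at least 2-fold. Of the 265 lower ones 124 had enough, of which 105 were lower in introns but 33 at least 2-fold, with a median log2 ratio of -0.66 in introns beside -1.38 in exons. Of the 92 features whose exon interval lay past 2-fold higher 51 had enough intron reads. All 51 were higher in introns too, and 47 at least 2-fold. Of the 40 whose interval lay past 2-fold lower 24 had enough, of which 22 were lower in introns and 15 at least 2-fold. For Sesn1 the intron reads numbered 781 and 265 (log2 ratio -1.10), for Itgae 142 and 340 (1.71) and for Lilrb4 137 and 1146 (3.52). The exon and intron reads come from the same RNA, so they are not independent of differences between the preparations.

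**Figure D4:**
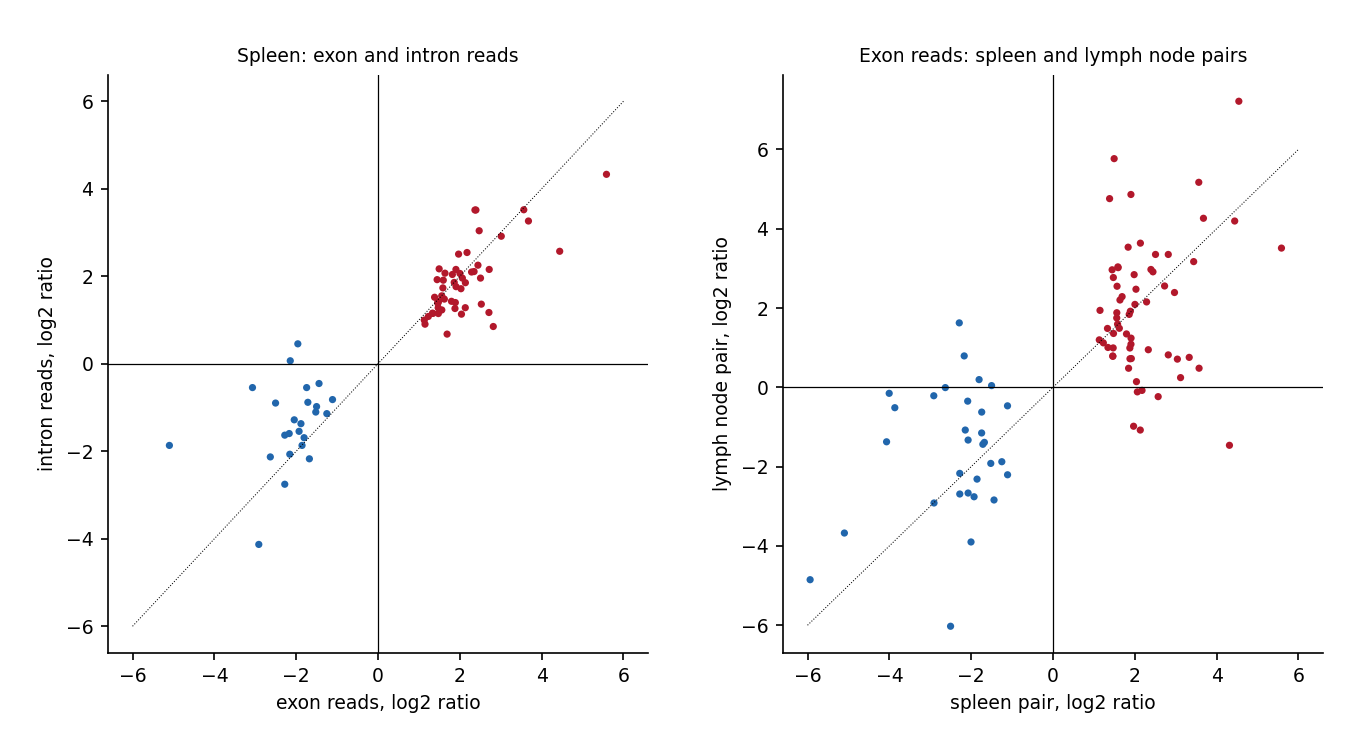
Points are features whose spleen exon interval lies past 2-fold (red higher, blue lower), plotted by the log2 ratio of exon reads in the spleen (horizontal axes) against that of spleen intron reads (left) and of exon reads in the tracheal lymph node pair (right); the dotted line marks equal ratios. All 51 red points on the left lie above 0, whereas on the right 57 of 63 red and 27 of 31 blue points lie on the spleen's side of 0.

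The tracheal lymph node pair, 1 library per genotype from another tissue, was set beside the spleen values without a test of the difference. In it 1426 of 10403 features (13.7%) were at least 2-fold higher and 1211 (11.6%) at least 2-fold lower, so a 2-fold ratio was more common there than in the spleen. Of the 336 features higher in the spleen 219 were measured in the lymph node, of which 166 were higher there and 112 at least 2-fold, while 19 were at least 2-fold lower. Of the 265 lower in the spleen 153 were measured, of which 119 were lower there and 78 at least 2-fold, while 12 were at least 2-fold higher. Counted over the 10000 features measured in both tissues, the 112 made up 51.1% of the higher features of the spleen and 8.37% of those of the lymph node, and the 78 made up 51.0% and 7.50% of the lower ones.

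For the genes that led the spleen comparison the lymph node values were as follows. Csnk2b had 667 and 283 lymph node reads (log2 ratio -1.39), Il18r1 195 and 775 (1.84), Il1r2 540 and 2556 (2.09), Gpr15 145 and 947 (2.56) and Sesn1 1018 and 299 (-1.92), each in the direction of its spleen ratio. Gpr83 had 1499 and 1302 reads (-0.35, beside -1.01 in the spleen). Scin, 8.68-fold higher in the spleen, had 19 and 25 reads in the lymph node (0.25), and Slc35d1, a nucleotide sugar transporter gene with 493 and 127 reads in the spleen (-1.50), had 332 and 380 (0.04). Sorcs2 (13 and 25 reads, 0.79) and Gm14085 (166 and 211 reads, 0.20) stood in the opposite direction to the spleen. The effector Treg list had a median log2 ratio of 1.35 over 33 members in the lymph node, and the naive and central T cell list -0.31 over 18. Myeloid and NK cell markers were also higher in the Csnk2b-deficient lymph node library. Their medians were 3.14 over 4 myeloid markers (Lyz2 187 and 1291 reads, Cd68 0 and 63) and 2.75 over 2 NK cell markers. B cell and CD8 T cell markers lay the other way, with medians of -0.43 over 4 and -0.57 over 2. The part of other cell types in the lymph node values was not tested. The labels give different extraction and library kits for samples 1 and 2 and for samples 3 and 4. If that numbering follows the order of the samples, tissue and kit cannot be told apart.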

How the data were processed

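CD4+Foxp3+ Tregs were sorted, and the labels' protocols name Trizol and TruSeq RNA v2 for samples 1 and 2, and RNeasy micro, SMARTer and Nextera XT for samples 3 and 4, but do not tie those numbers to libraries. Sequencing was on a MiSeq, and the submitters' processing notes name CASAVA 1.8.2 and the mm9 build. Neither an aligner nor an annotation is named in them. The authors deposited counts of total, exon, uniquely placed and junction reads per feature and library, per the file headers. Of 37583 listed features 9551 without an exon length, which held 0 exon reads, were left out.

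Total exon reads were scaled to library sizes from edgeR 4.0.16 (TMM, on the spleen pair; R 4.3.3). A ratio is that of scaled counts (CPM), with a count of 0 taken as a floor of 3 reads, and its interval is the exact Clopper-Pearson interval of the share of reads (scipy 1.17.1). Intervals and floors cover counting error only. With 1 library per genotype no test was run. Levels per length (RPKM) were computed here from the exon lengths. Intron reads are unique gene reads minus unique exon reads. Alternatives were 3 other scalings, uniquely placed reads and other read minimums.

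Named genes are Csnk2b, Csnk2a1, Csnk2a2, Foxp3, Lilrb4 and Gp49a, the 15 features in each direction whose interval's near end lies farthest from no change (at least 50% of reads uniquely placed, and 2-fold on those too), the leading 4 or fewer members of every list by that measure, and the cell type markers. Other genes named beside them, such as Slc35d1, Cldn25, the genes with 1000 reads or more and further list members, were chosen after their values were seen. The members and the 44 gene lists, 11 of them marker lists, were chosen with earlier results of these data known. Results for a few genes are not reported here.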

Additional observations from a re-analysis of the deposited data

How the results depend on the processing

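3 other scalings (total exon reads, upper quartile and the median of ratios of DESeq2 1.42.0) gave 340 or 341 features at least 2-fold higher and 260 or 265 lower, held 336 of the 336 and at least 260 of the 265, and moved the median log2 ratio to between -0.01 and -0.00. The read minimum decided the counts: with 1 read or more 993 were higher and 714 lower, and with at least 100 reads 94 and 66, of which 47 and 23 had the whole interval past 2-fold. Uniquely placed reads gave 287 and 213, sharing 262 and 198 with the counts on all reads, and 26 features with the whole interval past 2-fold lower in place of 40. A minimum of 50% uniquely placed reads, added after seeing the data, left 280 and 207. Of 168 named genes 7 moved beyond their interval on uniquely placed reads and 0 under the other scalings, among them Foxp3 (-0.62), Lss (-0.20) and Ttn (1.92), with 0 reversed. Of 76 counts of list members past 1.5-fold 2 moved under total exon reads, the core Treg and follicular helper genes higher (each from 0 to 1), and 4 on uniquely placed reads: inhibitory receptors and early T cell receptor genes lower (each from 0 to 1) and ribosomal protein genes higher (0 to 1) and lower (1 to 3). Csnk2b stayed within its interval under every setting run. No paired analysis was possible because each genotype has 1 spleen library, and leaving a library out leaves no ratio. Depth limits the features under 100 reads, whose intervals are wide, and differences between animals are not measured.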
